A study of Mus musculus with 6 samples.

Results

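Mediator is the multi-subunit complex that carries signals from DNA-bound transcription factors to RNA polymerase II. The genes of its subunits were followed here in cultured mouse muscle stem cells with and without the knockout of 1 of them, Med23. The members are the 33 rows of the deposited expression table, of 32973 rows in all, whose gene name is that of a Mediator subunit. The members were chosen by name. Of these, 32 had a mean of at least 1 FPKM (fragments scaled to transcript length and library size) over all libraries and were tested, and Med12l did not.

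Mediator is built of a head and a middle module that contact the polymerase, a tail module that many activators bind, and Med14, the scaffold that joins them. A separate kinase module, made of a cyclin-dependent kinase, cyclin C, Med12 and Med13, can dock on the core complex and modulate it. MED23 lies in the tail beside MED16, MED24 and MED25, and it is best known as the target of activators downstream of mitogen signalling, such as the ETS factor ELK1. MED27 to MED30 are placed in the tail here, while earlier schemes placed them in the head.

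RNA was measured in 6 libraries of primary muscle stem cells from skeletal muscle, sorted by flow cytometry and kept for 3 days on collagen I in F10 medium with 20% fetal bovine serum and 5 ng/ml basic fibroblast growth factor. The 3 control libraries (Ctrl) came from cells with loxP-flanked Med23 (genotype Med23flox/flox). The 3 knockout libraries (Med23KO) came from cells with the same alleles and a Cre recombinase fused to a modified oestrogen receptor under Pax7 (Med23flox/flox::Pax7CreERT2), so that recombination depends on Pax7 expression. The labels state no other treatment and name neither tamoxifen dosing nor the animals' age or number. Cre was present in the knockout group alone, so that its effects and those of Med23 loss cannot be told apart. Whether the libraries of a group are separate animals or cultures is not stated, and each p-value therefore reflects library-to-library spread that may be technical alone.

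The sum of FPKM per library ran from 599700 to 747000, and 12017 to 12465 genes were above 1 FPKM; read depth is unknown. Over the 12336 genes tested, 184 were higher and 175 lower in the knockout (limma, Benjamini-Hochberg adjusted p under 0.05, here named called), which is 2.91% of the genes. With libraries scaled to equal medians the split was 363 higher and 205 lower, and with a correction for transcript GC content 361 higher and 651 lower. Markers of muscle stem cells and myoblasts were present in every library, with a summed level of 1394 to 2081 FPKM in controls and 1266 to 2051 FPKM in knockouts. The largest part of this sum was Myod1, with means of 948.3 and 786.5 FPKM in controls and knockouts. Of 8 tested, 0 were called, 6 had a positive log2 fold change and 2 a negative one. Itga7 was lower without overlap, with means of 98.5 and 58.1 FPKM (limma adjusted p = 0.0515). Cdh15 had the largest positive log2 fold change, 0.76, with overlapping groups (limma adjusted p = 0.168). Replicate 3 of each group stood apart from replicates 1 and 2 in genes of high or low GC content. Across 11955 tested genes with a known transcript, the difference of replicate 3 from the mean of replicates 1 and 2 had a Pearson r with GC content of -0.52 in controls and -0.50 in knockouts. This touches several subunits, and results that rest on replicate 3 are therefore also given without it.

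Med23 was the single member called lower, and its transcript dropped to 47.1% of the control mean. The gene, ENSMUSG00000019984.16, lies on the plus strand of chromosome 10 from 24869986 to 24913681 (mm10). Controls had 10.4, 11.7 and 10.2 FPKM of Med23. In the knockout libraries it had 5.10, 5.86 and 4.23 FPKM. Every knockout value lay below every control value. On average log2 expression changed by -0.96 (adjusted p = 0.0197 by limma, SE 0.133, n = 3 against 3) on the log2(FPKM + 1) scale, which is used for all fold changes and understates the change of low genes. The exact two-sided permutation p was 0.1, the smallest that 3 against 3 libraries allow. In controls Med23 ranked 25, 24 and 25 from the highest of the 33 members by FPKM, and in knockouts 32, 30 and 30. It made up 1.80%, 1.95% and 1.80% of the members' summed FPKM in controls and 0.911%, 1.06% and 0.785% in knockouts. Without 1 library the adjusted p ran from 0.00869 to 0.108 and missed the threshold in 5 of 6 fits, all but that without Med23KO replicate 3. Without both replicate 3 libraries the log2 fold change was -0.89 (adjusted p = 0.00810). FPKM counts all exons together, and which exons the loxP sites flank is not stated.

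Markers of fibro-adipogenic progenitors, muscle-resident stromal cells that do not express Pax7, had higher values in the knockout libraries. Their summed level was 212, 190 and 160 FPKM in controls and 333, 288 and 218 FPKM in knockouts. Most of this sum was the collagen gene Col3a1 alone. It had 181.8, 163.5 and 138.1 FPKM in controls and 285.5, 256.3 and 183.5 FPKM in knockouts. Of 9 listed, 7 were tested, 7 had a positive log2 fold change and 0 were called. In 3 of the 7 the knockout was higher without overlap, against 10% of all genes. Pdgfra had means of 1.88 and 2.95 FPKM in controls and knockouts and Ly6a 5.04 and 9.29 FPKM, both with overlapping groups. Dpp4 and Pi16 had group means of at most 0.0205 FPKM in either group. The endothelial markers summed to between 6.02 and 12.04 FPKM, with 0 of 3 tested called. The leukocyte markers summed to between 0.309 and 1.33 FPKM, and none was high enough to be tested. Smooth muscle and pericyte markers summed to between 6.58 and 12.9 FPKM and Schwann cell markers to between 1.39 and 1.84 FPKM, with 0 of 1 tested called in each. Among 6 tested myocyte markers, Actc1 alone was called, higher in the knockout, against 1.49% of all genes. The list summed to 158, 149 and 123 FPKM in controls and 250, 277 and 268 FPKM in knockouts. In 4 of the 6 (Myog, Myh3, Acta1 and Actc1) the knockout was higher without overlap, against 10% of all genes. Myog had means of 30.2 and 83.3 FPKM in controls and knockouts (limma adjusted p = 0.0609). Tnnt2 went the other way, with means of 50.05 and 37.2 FPKM and overlapping groups. The part of these cells in the members' values was not tested. In bulk RNA, fewer cells of a type and less RNA per cell cannot be told apart.

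The tail neighbours of Med23 were not called in either direction. Med16 had 9.11, 8.80 and 6.98 FPKM in controls and 10.3, 9.66 and 5.82 FPKM in knockouts. Med24 had 16.7, 16.6 and 12.01 FPKM in controls and 15.9, 13.2 and 11.3 FPKM in knockouts. Med25, the subunit bound by the herpesvirus activator VP16, had 25.3, 24.3 and 16.2 FPKM in controls and 24.4, 20.7 and 12.4 FPKM in knockouts. In each of these genes the groups overlapped, and replicate 3 was the lowest library of either group. The log2 fold changes were 0.02 for Med16, -0.16 for Med24 and -0.21 for Med25, with 95% intervals of -0.47 to 0.50, -0.56 to 0.24 and -0.82 to 0.40. None passed the test (limma adjusted p = 0.979, 0.678 and 0.727), and the intervals do not exclude changes of these sizes. Without both replicate 3 libraries Med16 was higher and Med24 lower without overlap of 2 against 2 libraries, where 55.4% of all genes do not overlap, and neither was called.

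**Figure D1:**
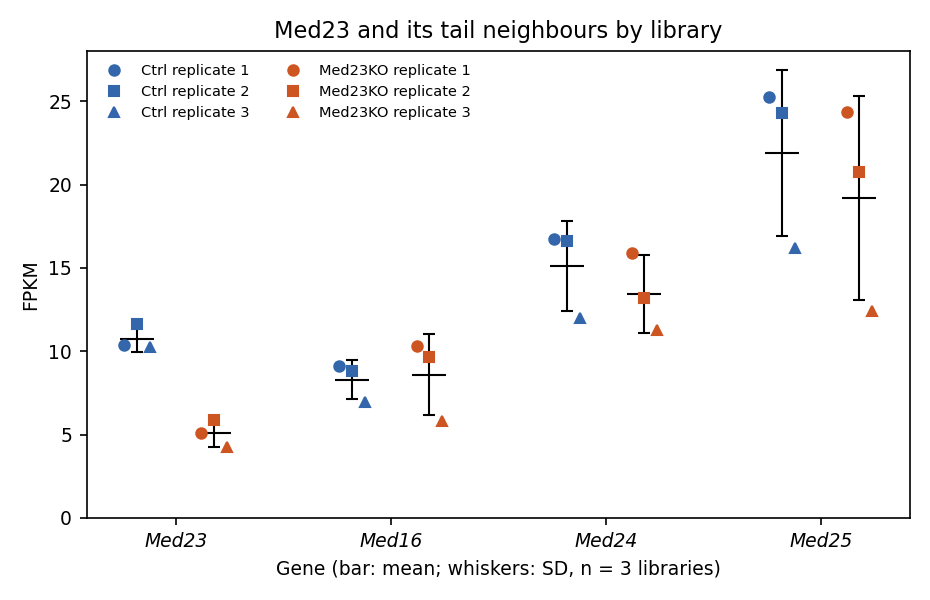
FPKM (vertical axis) of Med23, Med16, Med24 and Med25 in each of 6 libraries, blue for Ctrl and orange for Med23KO, with marker shape for the replicate number, bars for means and whiskers for the SD (n = 3). The 3 Med23KO values of Med23 lie between 4.23 and 5.86 FPKM, all below the controls, while the groups overlap in the other genes and replicate 3 (triangles) is lowest in each.

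The ratio of Med23 to a neighbour in the same library does not depend on how libraries are scaled. The Med23 to Med16 ratio was 1.14, 1.32 and 1.47 in controls and 0.496, 0.606 and 0.726 in knockouts. The Med23 to Med24 ratio was 0.620, 0.701 and 0.852 in controls and 0.320, 0.445 and 0.375 in knockouts. The Med23 to Med25 ratio was 0.411, 0.480 and 0.632 in controls and 0.209, 0.283 and 0.340 in knockouts. Groups did not overlap in any of the 3 ratios, and the knockout was the lower. The mean log2 differences were -1.11, -0.93 and -0.88. Each had an exact two-sided permutation p of 0.1 (adjusted over 3 ratios, 0.1), the smallest possible. Med16 was thus the less abundant transcript of the Med23 and Med16 pair in all controls and the more abundant in all knockouts.

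The other 32 subunits gave 0 calls among the 31 tested, against 2.91% of all genes called (1.49% higher and 1.42% lower). Unadjusted, 3 of the 31 had p under 0.05 (Med18, Cdk8 and Med8), where 19.7% of all genes did. The authors' deposited table called Med13l besides Med23 (q = 0.0140), where it called 15.7% of the genes it tested. With the replicate number as a block 4 were called, where 22.3% of all genes were. Their median log2 fold change was -0.10, against -0.03 over all genes tested, and 21 lay below 0 and 10 above, where 54.9% of all genes lay below. In 5 of the 31 the groups did not overlap, all lower in the knockout: Med8, Med18, Med1, Med19 and Cdk8. With quantile normalization the 5 were Med1, Med18, Med19, Med22 and Med26, and with median scaling 4 did not overlap (Med1, Med18, Med19 and Med22). Over all genes 24.7% did not overlap, 14.7% of them lower and 10% higher, as shares of all genes tested. The summed FPKM of all 33 members was 578, 598 and 569 in controls and 560, 555 and 538 in knockouts.

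**Figure D2:**
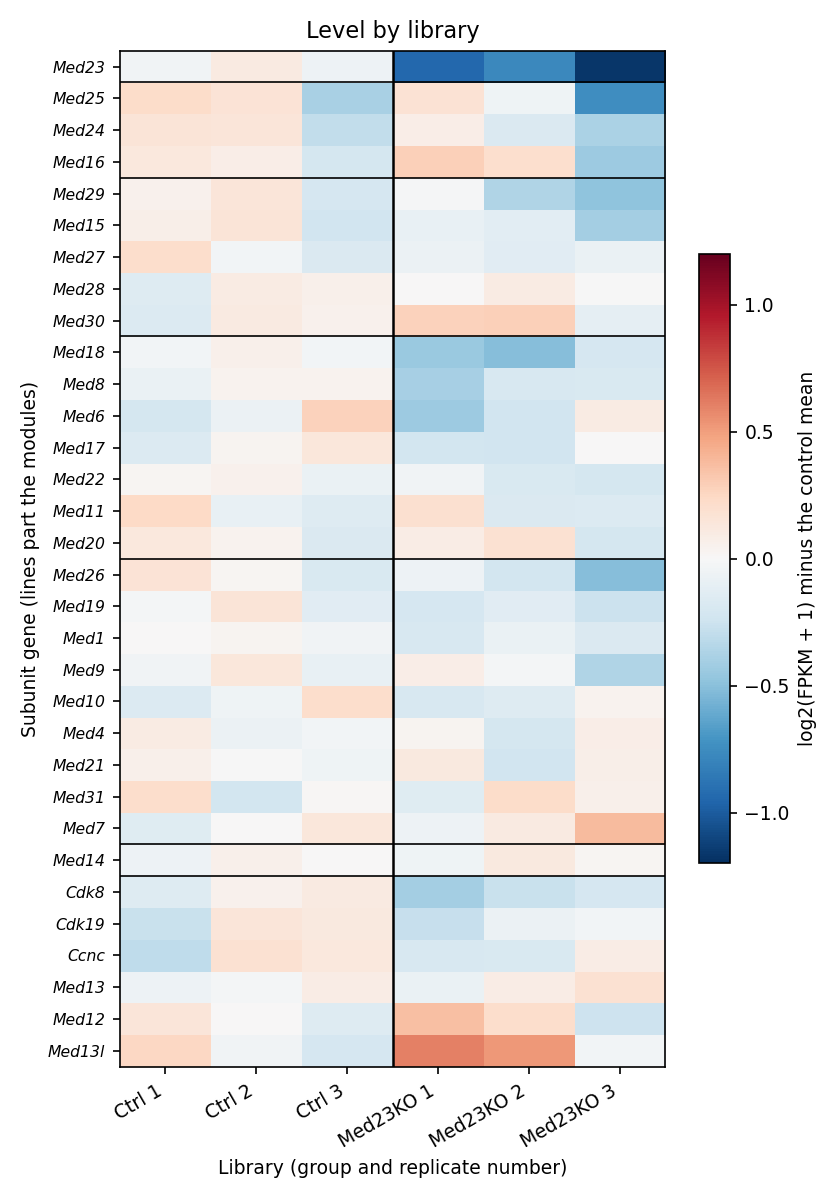
Level of the 32 tested subunits (rows, grouped by module between the lines) in each library (columns), as log2(FPKM + 1) minus the control mean, from blue (lower) to red (higher). The row of Med23 is blue in all knockout libraries, between -1.17 and -0.78, and the Med25, Med24 and Med16 rows are blue in replicate 3 of both groups.

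The remaining tail genes overlapped between groups. Med15, which encodes a subunit with an activator-binding KIX domain, had the highest control level among them. It had 22.0, 23.4 and 17.8 FPKM in controls and 19.6, 19.1 and 15.5 FPKM in knockouts. Med29 had the lowest, at 6.41, 6.88 and 5.21 FPKM in controls and 6.08, 4.54 and 4.09 FPKM in knockouts. The 5 genes ran from a log2 fold change of -0.29 (Med29) to 0.15 (Med30), with a median of -0.09 that ran from -0.18 (without Ctrl replicate 3) to -0.04 (without Ctrl replicate 1). Med27 and Med28 had values of -0.09 and 0.03.

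In the head module Med18 was the member nearest to a call after Med23. Med18, which with MED20 and MED8 forms the movable jaw of the head, had 13.4, 14.4 and 13.4 FPKM in controls. In the knockout libraries it had 9.81, 9.32 and 11.8 FPKM, all below the controls. Its log2 fold change was -0.39 (95% interval -0.66 to -0.11, SE 0.116, adjusted p = 0.127 by limma), the smallest adjusted p after Med23. Med18 went past the threshold without Med23KO replicate 3 (limma adjusted p = 0.0370), without both replicate 3 libraries (adjusted p = 0.0379) and with the GC correction (adjusted p = 0.0455), where 9.27%, 9.80% and 8.47% of all genes were called. Its adjusted p over all alternatives ran from 0.0219 to 0.403.

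Med8, which tethers that jaw to the rest of the head, had 13.9, 15.1 and 15.1 FPKM in controls and 10.9, 12.7 and 12.9 FPKM in knockouts. The groups did not overlap, but the log2 fold change of -0.26 was not called (95% interval -0.51 to -0.01, SE 0.107, adjusted p = 0.238), and under quantile normalization or median scaling they overlapped. Med20, the other jaw gene, gave 0.02 (95% interval -0.31 to 0.34), with 17.6, 16.5 and 14.1 FPKM in controls and 17.0, 18.3 and 13.7 FPKM in knockouts. The 95% intervals of these jaw genes overlap, and the differences between them were not tested. Med6 had the highest control level of the head, at 19.5, 21.5 and 27.7 FPKM against 16.5, 19.2 and 24.4 FPKM in knockouts. Here replicate 3 was the highest library of each group, the reverse of the tail neighbours. Med11 had the lowest, at 10.8, 8.35 and 7.98 FPKM against 10.4, 7.81 and 7.92 FPKM. Med17, the head's central subunit, and Med22, the partner of MED11, had a log2 fold change of -0.15 each. The median of the 7 head genes was -0.15, or -0.15 with Med27 to Med30 counted in the head. Without 1 library it ran from -0.23 (without Ctrl replicate 1) to -0.12 (without Ctrl replicate 3), and was -0.22 without Med23KO replicate 3. Relative to the control mean, the head median was -0.22, -0.19 and -0.18 in the knockout libraries and -0.03, 0.04 and -0.03 in the control libraries, so that the groups did not overlap. The same held for all 31 members on the deposited scale, at -0.06, -0.14 and -0.16 in knockouts and 0.00, 0.04 and -0.04 in controls. Over all genes tested the medians overlapped, at 0.01, 0.01 and -0.10 in knockouts and 0.03, 0.02 and -0.04 in controls. Those of the tail neighbours, the other tail, the middle and the kinase module overlapped as well. All these medians are on the deposited scale. There Med23KO replicate 3 had the lowest library median of log2(FPKM + 1), at 3.43 against 3.51 to 3.61 in the others. With libraries scaled to equal medians the head groups overlap, and those of all 31 members are no longer clearly apart.

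The promoter of Med18 is shown since this gene came nearest to a call after Med23. The promoter set used here, placed by RefSeq start sites (build GRCm38.p6), held 28 of 33 members. It lacked Med23, Med24, Med8, Med30 and Cdk19, for which no promoter is shown. Shown are the upstream bases outside annotated exons, 5′ to 3′ on the gene's strand, with matches to 7 motifs in capitals.
Med18 (chr4:132463922-132464171, minus strand): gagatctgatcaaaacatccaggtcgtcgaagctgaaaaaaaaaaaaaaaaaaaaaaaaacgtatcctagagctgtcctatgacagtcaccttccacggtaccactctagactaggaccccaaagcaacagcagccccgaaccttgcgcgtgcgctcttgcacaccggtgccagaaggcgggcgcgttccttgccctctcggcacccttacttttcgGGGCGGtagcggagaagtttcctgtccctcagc
The motifs, searched on both strands of the 250 bases before the start, were the GC box GGGCGG, the ETS core CCGGAAG, the CCAAT box (its name spells it), the TATA box TATAAA, the CRE palindrome TGACGTCA, and an NRF1 and a YY1 motif, given by name alone. Each was searched on its own, and no match was dropped for overlapping another. Of 28 members, 18 (64.3%) held a GC box, against 32.9% of 27025 promoters. Those promoters were not limited to genes expressed in these cells, and a comparison with expressed genes alone was not made. The ETS core was found in 4 (Med14, Med17, Med19 and Med4; 14.3% against 7.05% of all), CCAAT in 39.3% against 34.5%, and TATAAA in 10.7% against 13%. TGACGTCA was found in Med21 alone (3.57% against 1.62%), and the NRF1 and YY1 motifs in 0 of 28 (0.781% and 0.289% of all). The single GC box of Med18 lies near the start site. A match is a run of letters and not evidence of binding.

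The middle module held both abundant and scarce transcripts. Med1, the large subunit that nuclear receptors bind, had 38.7, 39.6 and 37.5 FPKM in controls and 33.7, 36.5 and 34.1 FPKM in knockouts. Its groups did not overlap, by a small margin, and log2 expression differed by -0.15 (adjusted p = 0.409 by limma, SE 0.0866). Med19 had 16.2, 18.5 and 14.9 FPKM in controls and 14.2, 14.8 and 13.5 FPKM in knockouts, also without overlap (log2 fold change -0.20, adjusted p = 0.379). Exonic bases of Med19 are shared with the opposite-strand genes Tmx2 and Zdhhc5, and whether the authors counted by strand is not given in the sources used here. Med21 had the highest control level of the middle, at 46.8, 44.9 and 43.2 FPKM against 48.7, 38.2 and 47.1 FPKM in knockouts. Med26, which links Mediator to elongation factors, had the lowest, at 6.27, 5.62 and 4.73 FPKM against 5.22, 4.60 and 3.56 FPKM. The 9 genes ran from -0.26 (Med26) to 0.14 (Med7), with a median of -0.10 that was -0.05 without Ctrl replicate 3 and -0.07 without Ctrl replicate 2. Between these, Med9 and Med10 had -0.10 each, Med4 -0.03, Med21 -0.02 and Med31 0.04. Med14, the scaffold, had the highest level of all members and hardly varied. It had 48.2, 52.5 and 50.4 FPKM in controls and 48.4, 54.9 and 51.3 FPKM in knockouts (log2 fold change 0.03, 95% interval -0.18 to 0.24).

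**Figure D3:**
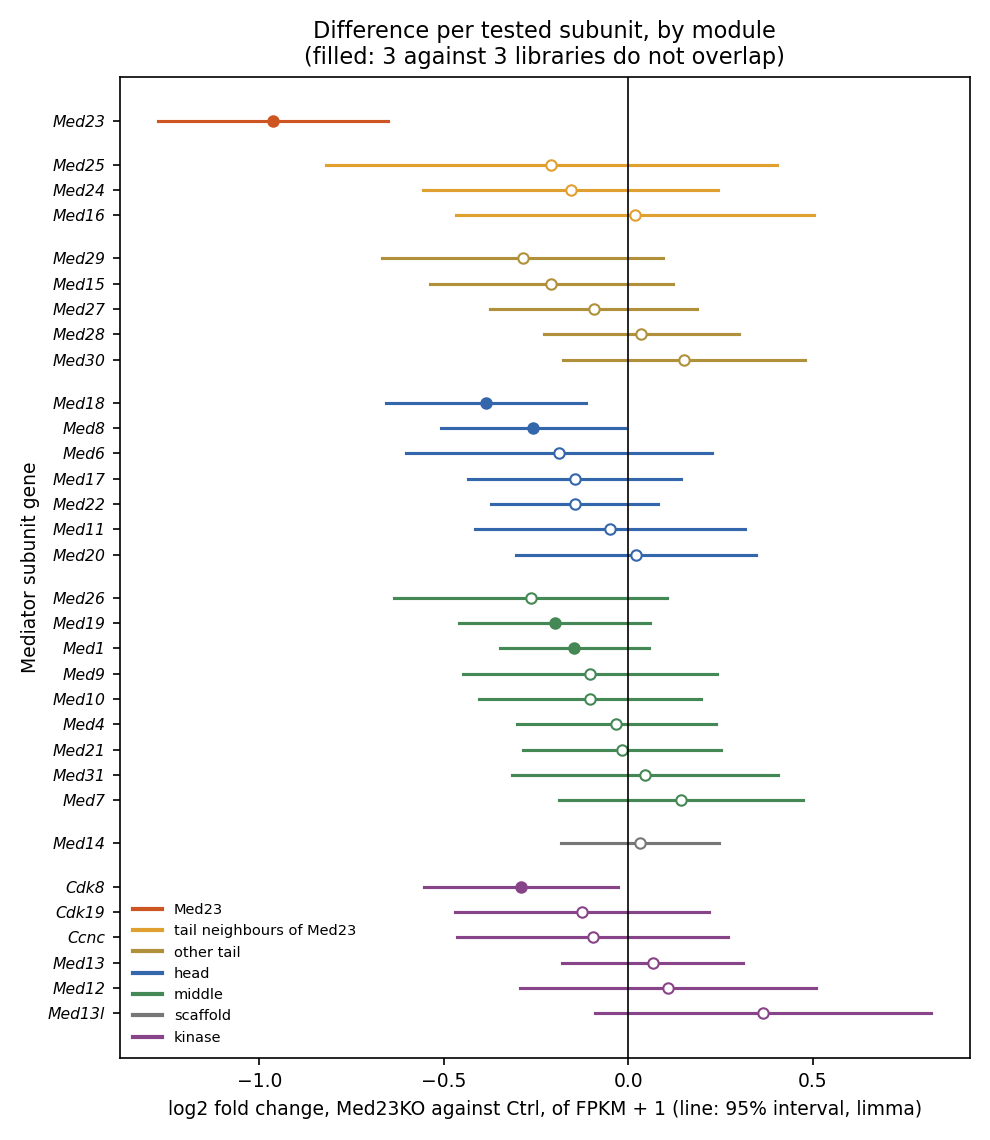
Log2 fold change of FPKM + 1, Med23KO against Ctrl (horizontal axis), for each of 32 tested subunits (rows, coloured by module), with the 95% interval of limma as a line and filled circles where the libraries of the groups do not overlap. Med23 lies at -0.96, and the other 31 lie between -0.39 (Med18) and 0.36 (Med13l).

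With Med23 set aside, the log2 fold changes of the kinase module spanned the widest range of the modules, from -0.29 to 0.36. Cdk8, the kinase, had 21.0, 24.4 and 25.4 FPKM in controls and 17.5, 19.4 and 20.3 FPKM in knockouts. The groups did not overlap as deposited but did under quantile normalization or median scaling, and its value of -0.29 was not called (adjusted p = 0.212 by limma, SE 0.113). Its paralog Cdk19, which can take its place, had 7.76, 10.7 and 10.5 FPKM in controls and 7.69, 9.08 and 9.34 FPKM in knockouts. Ccnc, the cyclin partner of either kinase, had 15.5, 22.2 and 21.2 FPKM in controls and 16.8, 16.9 and 20.7 FPKM in knockouts. Both overlapped, at -0.13 and -0.10. Cdk19 took 27.0%, 30.4% and 29.3% of the summed Cdk8 and Cdk19 FPKM in controls and 30.5%, 31.9% and 31.5% in knockouts. The mean share was 2.40 percentage points higher in knockouts (exact two-sided permutation p = 0.1, adjusted over 3 paralog pairs 0.3). The groups were barely apart, with 30.43% in the highest control and 30.52% in the lowest knockout library.

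Med13l, 1 of the paired genes for the subunit that tethers the kinase to the core, had the largest positive value of all members. It had 21.0, 17.0 and 15.2 FPKM in controls and 27.3, 25.7 and 17.1 FPKM in knockouts. Med23KO replicates 1 and 2 lay above all controls and replicate 3 lay within them. This gave 0.36 on the log2 scale (95% interval -0.09 to 0.82, SE 0.195, adjusted p = 0.363 by limma). Without 1 library it ran from 0.24 (without Med23KO replicate 1, adjusted p = 0.633) to 0.56 (without Med23KO replicate 3, adjusted p = 0.0536). The replicate block called it (adjusted p = 0.0315), where 22.3% of all genes were called. In Med13, the paralog, the groups overlapped, with 29.98, 30.7 and 33.4 FPKM in controls and 29.6, 33.4 and 35.8 FPKM in knockouts. The Med13l share of the pair was 41.2%, 35.6% and 31.2% in controls and 48.0%, 43.4% and 32.3% in knockouts (exact two-sided permutation p = 0.4, adjusted 0.4).

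Med12, which activates the kinase, had 15.5, 14.1 and 12.5 FPKM in controls and 18.3, 16.3 and 11.6 FPKM in knockouts, with a log2 fold change of 0.11. Its paralog Med12l was close to absent. It had 0.210, 0.207 and 0.159 FPKM in controls and 0.180, 0.0845 and 0.177 FPKM in knockouts, and made up 0.517% to 1.499% of the pair (exact permutation p = 0.4, adjusted 0.4). Exonic bases of Med12l are shared with Igsf10 and P2ry12 on the opposite strand, which makes so low a value uncertain. The control order of FPKM in the module was Med13, Cdk8, Ccnc, Med13l, Med12, Cdk19 and Med12l, and Ccnc and Med13l differed by less than their SDs (19.6 ± 3.61 and 17.7 ± 3.00, n = 3).

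**Figure D4:**
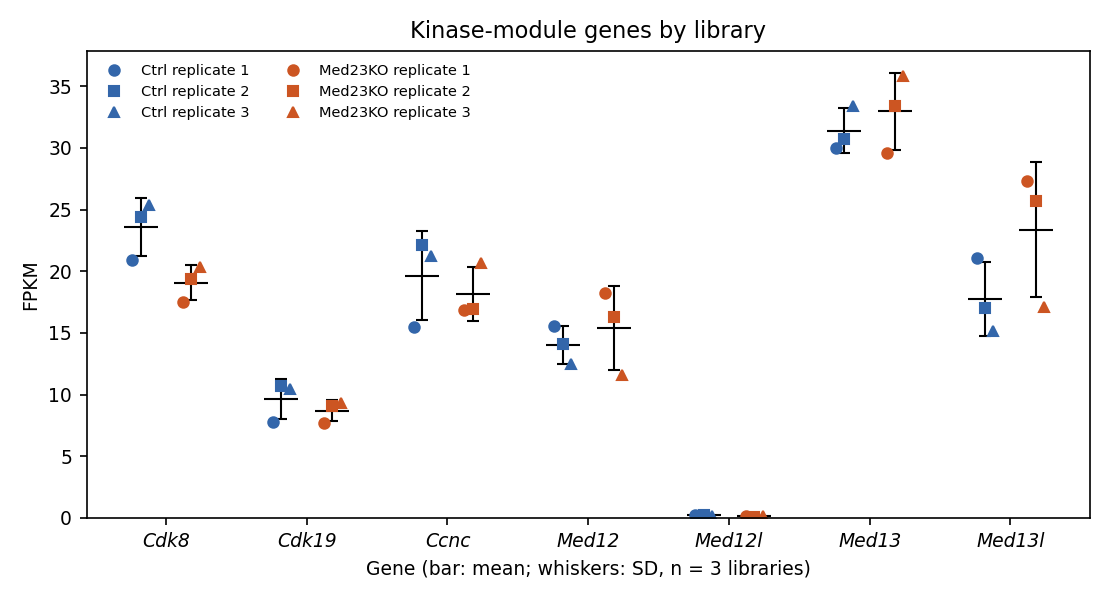
FPKM (vertical axis) of the 7 kinase-module genes in each of 6 libraries, blue for Ctrl and orange for Med23KO, with marker shape for the replicate number, bars for means and whiskers for the SD (n = 3). Cdk8 is lower in each knockout library, Med13l is above the controls in Med23KO replicates 1 and 2 only, and Med12l is below 0.25 FPKM throughout.

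The upstream sequences of Cdk8 and Med13l, the kinase-module genes with the lowest and the highest log2 fold change, are given for comparison with that of Med18, with motif matches in capitals.
Cdk8 (chr5:146231000-146231229, plus strand): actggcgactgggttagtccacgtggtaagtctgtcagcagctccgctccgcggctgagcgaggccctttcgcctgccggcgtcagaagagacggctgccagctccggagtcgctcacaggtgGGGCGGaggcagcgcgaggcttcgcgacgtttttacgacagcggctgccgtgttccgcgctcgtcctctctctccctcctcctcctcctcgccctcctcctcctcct
Med13l (chr5:118560469-118560678, plus strand): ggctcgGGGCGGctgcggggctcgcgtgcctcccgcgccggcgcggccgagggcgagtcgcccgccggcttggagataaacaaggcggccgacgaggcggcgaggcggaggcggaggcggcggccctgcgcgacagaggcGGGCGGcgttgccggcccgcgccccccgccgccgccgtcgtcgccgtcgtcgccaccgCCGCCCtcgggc
Cdk8 holds 1 GC box here, and Med13l holds 3, in a stretch of 83.3% G and C against 67% in Cdk8 and 52.8% in Med18.

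Within a group, the values of many members ran with the library number and with the base composition of their transcripts. GC content of the longest coding transcript ran from 35.5% (Ccnc) to 60.2% (Med16). Across the 32 tested members the difference of replicate 3 from replicates 1 and 2 had a Pearson r with GC content of -0.70 in controls and -0.70 in knockouts (Spearman rho -0.75 and -0.66). These points share their libraries, and members are not independent replicates. With log2 transcript length, Pearson r was -0.12 and -0.24. Replicate 3 was the lowest library of both groups in 13 of 32 members, as in 39.7% of all tested genes: Med23, Med16, Med24, Med25, Med15, Med29, Med20, Med22, Med9, Med19, Med26, Med12 and Med13l. It was the highest of both in 7 (Med6, Med8, Med17, Med7, Med10, Med13 and Cdk8), as in 18.5% of all genes. Med25 differed by -0.58 in controls and -0.81 in knockouts, and Med6 by 0.42 and 0.43. The difference between genotypes was less related to GC content, with r = -0.22 over 31 members without Med23 and -0.07 over all genes.

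**Figure D5:**
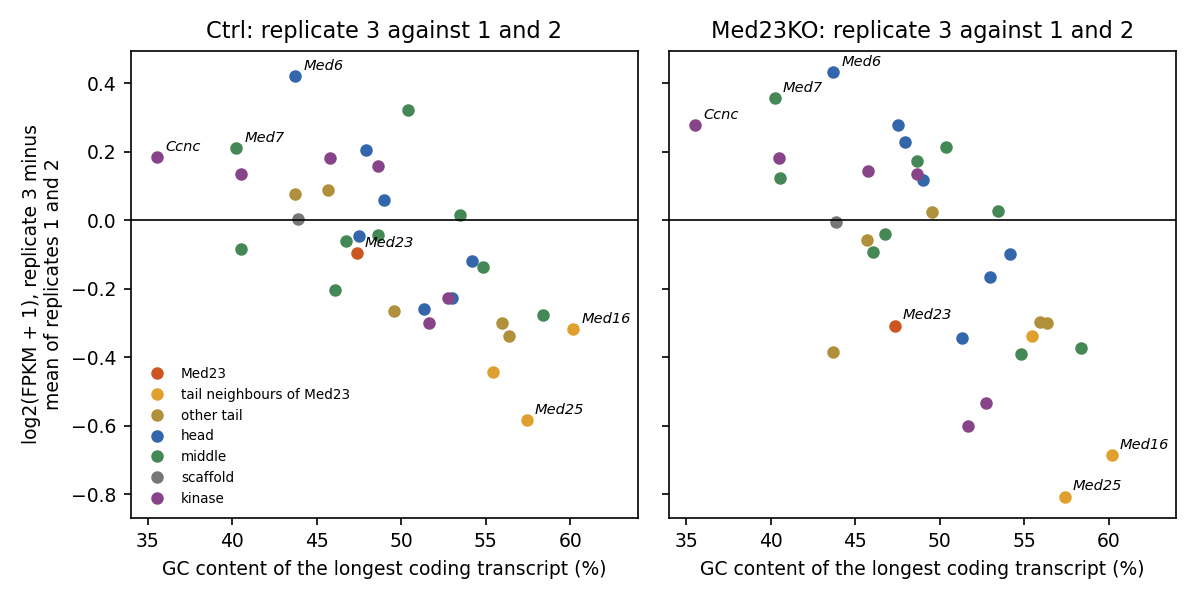
Difference of replicate 3 from the mean of replicates 1 and 2 in log2(FPKM + 1) (vertical axis) against transcript GC content in percent (horizontal axis) for 32 tested subunits, coloured by module, in Ctrl (left) and Med23KO (right). Points fall from upper left to lower right in both panels (r = -0.70 in each), and the tail neighbours Med16, Med24 and Med25 lie at the lower right.

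With GC content corrected in each library, Med23 had a log2 fold change of -0.98 (limma adjusted p = 0.0119) and 1 of the 31 other members, Med18, was called, against 8.47% of all genes. The groups then did not overlap in 9 members, 8 of them lower, against 32.3% of all genes, 22.8% lower. Without both replicate 3 libraries Med18 was again the single other call, against 9.80% of all genes. In that case 17 of 31 members did not overlap, 13 lower and 4 higher, where 55.4% of all genes did not overlap and 28.4% were lower.

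Genes of the preinitiation complex and of transcript elongation gave 0 calls among 63 tested, against 2.91% of all genes called. Under alternatives, calls appeared with library weights (5), the replicate block (12), the GC correction (2), without Med23KO replicate 3 (2) and without both replicate 3 libraries (3), where 13.8%, 22.3%, 8.47%, 9.27% and 9.80% of all genes were called. Of the 12 genes called in any alternative 11 were lower, among them Polr2j, Tbp, Taf4b and Cdk9, and Aff4 was higher. All 13 genes of the RNA polymerase II list had a log2 fold change below 0 on the deposited scale, where 54.9% of all genes lay below. Their median was -0.16, against -0.03 over all genes tested. Of these 13 genes 0 were called, and 4 were lower without overlap, against 14.7% of all genes. The smallest adjusted p was that of Polr2j (72.4 ± 6.22 and 55.6 ± 4.26 FPKM, SD, n = 3, limma adjusted p = 0.107). Of 18 general transcription factor genes 0 were called, with a median of -0.11, and Tbp, the TATA-binding protein gene, had the smallest adjusted p (15.5 ± 0.811 and 11.6 ± 0.745 FPKM, n = 3, limma adjusted p = 0.0860). Of 14 tested TAF genes of TFIID 0 were called, with a median of -0.10, and the germline-linked Taf4b had 6.64 ± 1.03 and 4.08 ± 0.854 FPKM (n = 3, limma adjusted p = 0.106). Of 18 tested elongation factor genes 0 were called, with a median of -0.11, and Cdk9, the kinase of P-TEFb, had 25.1 ± 1.32 and 20.6 ± 0.385 FPKM (n = 3, limma adjusted p = 0.154). The Mediator median of -0.10 thus lay among those of its partner lists, which ran from -0.16 to -0.10.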

How the data were processed

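FastQC, cutadapt, STAR, Cuffdiff and the mm10 build are listed in the submitters' processing notes, without versions, annotation or strand setting. The authors deposited 1 table that holds Cuffdiff FPKM per library beside their Cuffdiff comparison. Its deposited p-values and q-values were used for the authors' calls, its test statistic (a score) was not. All 33 members matched by symbol after 12316 of 12368 Ensembl-only rows were named from a table of gene identifiers and symbols. GENCODE vM21 of mm10 gave coordinates and transcript GC content. FPKM are not counts, so depth is unknown, and precision comes only from the 3 libraries of a group. Genes that averaged 1 FPKM or more were tested on log2(FPKM + 1) with limma 3.58.1 (R 4.3.3, mean-variance trend, genotype as the factor, two-sided, Benjamini-Hochberg over 12336 genes, threshold 0.05). Within-library ratios and paralog shares had exact permutation tests. Full values are given for Med23, its neighbours, the kinase module, and in each other module the members whose groups did not overlap and those with the highest and lowest control level; each partner list is named by its smallest adjusted p. The GC correction subtracted a loess curve (span 0.3) of each library's deviations on transcript GC content. Members, modules and lists were chosen with earlier results of these data known. Exonic bases were shared with another gene in 18 members, 5 of them with a protein-coding gene (Med19, Med20, Med21, Med12l and Ccnc). Alternatives covered the pseudocount, the filter, scaling, the variance model, library weights, a replicate block, each library left out and, added after seeing the data, both replicate 3 libraries left out and the GC correction.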

Additional observations from a re-analysis of the deposited data

How the results depend on the processing

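Med23 kept its direction under every alternative run, with a log2 fold change between -1.06 and -0.86 over the fits without 1 library, and was not called in 5 of these 6. The count of 359 genes called was 157 without a filter on low values, 568 with median scaling, 1700 with library weights (whose estimate stopped before converging), 2757 with the replicate block, 1012 with the GC correction, 1209 without both replicate 3 libraries, 2054 by the authors' q-values, and 13 to 1144 without 1 library. The 0 calls among the other subunits became 2 with library weights (Cdk8 and Med18), 1 with the GC correction, 1 without both replicate 3 libraries, 1 by the authors' q-values (Med13l), 4 with the replicate block (Cdk8, Med13l, Med18 and Med8), and 0 to 1 without 1 library. The subunits without overlap were 5, against 9 with the GC correction 17 without both replicate 3 libraries, 5 with quantile normalization and 4 with median scaling, where Med8 and Cdk8 overlapped; the cause of these moves was not tested, beyond the change in libraries and values itself. Replicate numbers did not pair the libraries in all cases: the correlations of same-numbered deviations were 0.44, -0.02 and 0.56, so Ctrl replicate 2 did not correlate best with its own number. With the replicate block, log2 fold changes are those of the unblocked fit. The within-library ratios and shares kept their direction under each alternative run, and with the replicate block their p was 0.25 or more, 0.25 being the smallest possible. Subunits near 0 changed sign without 1 library, over ranges of -0.183 to 0.00961 (Med27), -0.0424 to 0.0822 (Med28), -0.169 to 0.0726 (Med11), -0.0900 to 0.0571 (Med4), -0.0824 to 0.0902 (Med21), -0.0663 to 0.151 (Med31), -0.117 to 0.246 (Med16), -0.0661 to 0.135 (Med20), -0.186 to 0.00357 (Med10), -0.0211 to 0.285 (Med12), -0.014 to 0.0743 (Med14), -0.404 to 0.0598 (Med25) and -0.196 to 0.0254 (Med9). They also did so with quantile normalization (Med4 0.00118, Med21 0.0224), median scaling (Med21 0.00818), library weights (Med28 -0.0432, Med11 0.0989, Med4 0.0327, Med21 0.0203, Med14 -0.0384) and the GC correction (Med14 -0.0091). Median scaling moved the median of all genes by less than 0.1. Depth is unknown, and 3 libraries a group leave 95% intervals of a median 0.33 on each side for the other subunits.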
